A study of Mus musculus with 31 samples.

Results

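Of the 31 arrays of mouse colon, 3 carried very low signal for the posterior Hox genes Hoxa13, Hoxb13 and Hoxd13, and these 3 low-Hox arrays are described here against the other 28. They were chosen by measured values. For each array and gene, the level was the log2 signal minus the log2 of that array's 75th percentile, so that a level of 0 is a signal at that percentile, and each gene was then centred on its mean over the 31 arrays. An array was taken where the median of the 3 centred values was below -3. The medians of the chosen arrays were -9.14, -8.33 and -6.02. The nearest arrays outside the threshold were CRC 7 days male 1 at -2.15 and CRC 7 days male 2 at -1.16, and the other 26 lay between 0.13 and 1.84. These values and every difference between the chosen and the other arrays are given as a description, with no test.

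The samples came from BALB/c mice, bought young, in the azoxymethane and dextran sodium sulphate (AOM/DSS) model of colorectal cancer. All mice, the controls included, had 1 intraperitoneal injection of AOM, a carcinogen, and a few days of DSS, an irritant of the colon, in the drinking water. The CRC + E171 mice also had 5 mg/kg body weight a day of E171, food-grade titanium dioxide, by gavage, and the CRC mice had the water vehicle alone by the same route. Mice were killed after 2, 7, 14 or 21 days, and RNA of the distal colon was hybridised to 1-colour Agilent arrays, 1 array a mouse. No mouse without AOM and DSS was included, so every level belongs to a chemically injured colon. Treatment and day made 8 groups, with 2 males and 2 females in each except CRC at 21 days, which had 2 females and 1 male.

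The 3 low-Hox arrays were CRC + E171 14 days female 1, CRC + E171 14 days female 2 and CRC + E171 7 days female 2, named below 14-day female 1, 14-day female 2 and 7-day female 2. All of them were labelled female and CRC + E171, as 8 of the 31 arrays were. They made up 2 of the 4 CRC + E171 arrays at 14 days, where the 2 remaining arrays were male, and 1 of the 4 at 7 days. They lay on 3 of the 8 slides and on all 3 scan days. All 8 CRC + E171 female arrays sat at the same position of their slide, and the posterior Hox medians of the other 5 were 0.823 to 1.65. The 75th percentile of the signal was 1912, 1950 and 2225 on the low-Hox arrays, ranks 2, 3 and 5 of 31 from the lowest. On the others it was 1717 to 6536, with a median of 3405. Between 72.3% and 76.2% of spots were well above background, against 67.4% to 78.9% on the others. The part of array brightness in the results was not tested.

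Hox genes encode homeodomain transcription factors that lie in 4 clusters, and their order along a cluster follows the order in which they are expressed along the body axis. Genes at the 5′ end of the clusters, of which the 13th group is the last, mark the hindmost part of the gut, whereas genes nearer the 3′ end are used further forward. In the adult mouse colon the distal part is known for Hoxb13 and for Insl5, a peptide hormone of enteroendocrine cells, and the proximal part for bile acid carriers and enzymes that metabolise foreign compounds. Regional expression of this kind is kept after birth in both epithelium and connective tissue.

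The probes and gene starts behind the main contrast are shown so that it can be traced to sequence. The Hoxa13 probe lies on the minus strand at chr6:52208980-52209039 of mm9, the Hoxb13 probe on the plus strand at chr11:96057854-96057913, the Hoxd13 probe on the plus strand at chr2:74509248-74509307 and the Insl5 probe on the minus strand at chr4:102690720-102690779. The array design gives these for Hoxa13 and Insl5, 5′ to 3′:
Hoxa13 probe: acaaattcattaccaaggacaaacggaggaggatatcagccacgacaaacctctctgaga
Insl5 probe: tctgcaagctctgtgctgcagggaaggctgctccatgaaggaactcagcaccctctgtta

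Of the genes that stood higher on the low-Hox arrays, Slc51a and Cyp2c55 are shown with the 250 bases before their start, from RefSeq on GRCm38.p6. Slc51a encodes a subunit of the carrier that exports bile acids from enterocytes, and its window is chr16:32487880-32488129 on the minus strand. Cyp2c55 encodes a cytochrome P450 of the large intestine, and its window is chr19:39006769-39007018 on the plus strand. Capitals mark the letters CAATAAA, the core bound by the gut factors CDX1 and CDX2, which begins 232 bases before the start of Cyp2c55.
Slc51a: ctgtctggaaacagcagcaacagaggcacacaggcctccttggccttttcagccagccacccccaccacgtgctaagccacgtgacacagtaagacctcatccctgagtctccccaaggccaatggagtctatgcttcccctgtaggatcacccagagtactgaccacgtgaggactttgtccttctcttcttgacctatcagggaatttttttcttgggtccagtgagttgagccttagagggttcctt
Cyp2c55: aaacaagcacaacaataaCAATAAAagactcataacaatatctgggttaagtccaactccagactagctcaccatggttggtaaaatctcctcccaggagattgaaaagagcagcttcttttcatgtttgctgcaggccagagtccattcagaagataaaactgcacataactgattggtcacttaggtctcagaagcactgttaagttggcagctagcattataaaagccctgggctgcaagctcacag

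Both strands of such windows were searched for CAATAAA and for TCGTAAA, a core bound by group 13 Hox proteins. The CDX core was present in 12 of 170 windows of the genes lower on the low-Hox arrays (7.06%), in 15 of 307 of the genes higher there (4.89%), in 2.91% of the 19376 windows of the genes tested and in 4.2% of all 32851 windows. The group 13 core was in 0 of the 170 windows, in 1 of the 307 (0.326%), in 0.48% of those of the genes tested and in 0.478% of all windows. Windows of 1 gene can overlap. These shares describe letters in short windows and carry no test.

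The genes of the rule fell well outside the range of the other arrays. Hoxb13 was at -1.76 on 14-day female 1, -6.83 on 14-day female 2 and -8.41 on 7-day female 2, whereas on the others its lowest level was 1.29, its median 5.60 and its highest 6.49. Hoxd13 was at -5.47, -7.38 and -8.19 in the same order, and at -0.62, 2.20 and 3.40 on the others. Hoxa13 was at -5.61, -4.14 and -3.57, and at -2.33, 0.40 and 1.16 on the others. No low-Hox array overlapped the others for any of the 3 genes, whose median chose them. The order among the 3 arrays was not shared, since 14-day female 1 had the lowest Hoxa13 but the highest Hoxb13 and Hoxd13. Hoxb13 and Hoxd13 were well above background only on 14-day female 1 of the 3, whereas Hoxa13 was so on all 3.

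**Figure D1:**
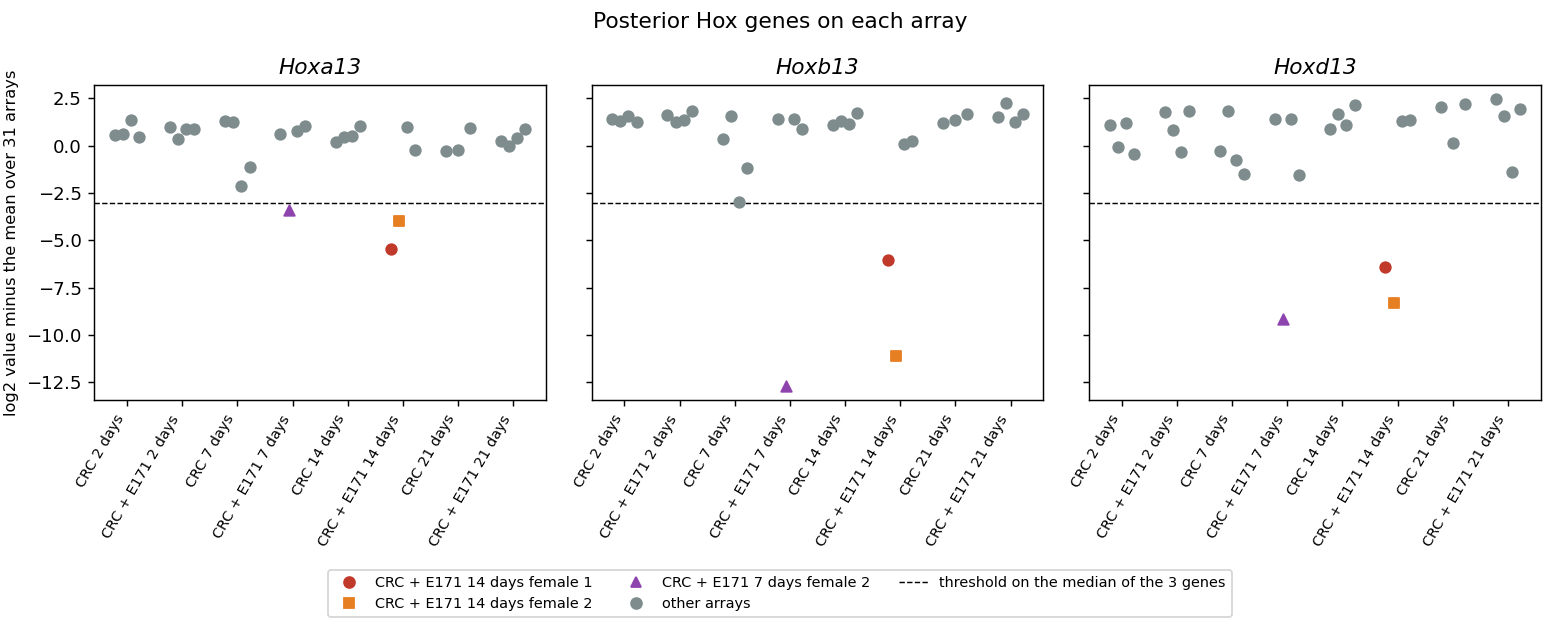
Centred log2 levels of Hoxa13, Hoxb13 and Hoxd13 on each of 31 arrays by group, with the low-Hox arrays as coloured symbols, the other arrays in grey and a dashed line at the threshold of -3 on the median of the 3 genes. The 3 coloured symbols lie below all grey points in each panel.

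Beyond the rule's genes, a gene was counted as lower or higher on the low-Hox arrays where all 3 lay below or above all 28 others and the means differed by 2-fold or more. Of 19842 genes, 166 (0.837%) were lower, the rule's 3 among them, and 312 (1.57%) were higher, and the median difference over all genes was 0.02 on the log2 scale. Since the 3 arrays were chosen with a threshold on 3 of these genes and tissue genes move together, the counts are a description of the arrays. Against the other arrays of their own group, Slc51a differed by 10.07 on 7-day female 2 and by 9.99 on the 14-day females. Each low-Hox array had every lower gene below and every higher gene above all other arrays of its own slide, as the count requires, with median differences of -2.11 to -1.86 and 1.60 to 1.90.

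Within the Hox clusters, 33 of 39 genes were measured. The 4 lower genes all lay at the 5′ end: the rule's 3 and Hoxd12. Hoxd12 was at -8.36 or lower on the 3 low-Hox arrays, not well above background on any of them, against -5.73 to 0.29 on the others, at least 14.7-fold lower. Its lowest level elsewhere was still above the 3 arrays on this scale, although the gap was lost with normexp background correction or the deposited normalized values.

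In the same clusters 7 genes were higher, all of them nearer the 3′ end: Hoxb4, Hoxb5, Hoxb6, Hoxb7, Hoxb8, Hoxb9 and Hoxd4. Hoxb8 was at -1.73, -0.70 and -0.60, and at -8.61, -6.64 and -4.15 (lowest, median, highest) on the others, a mean difference of 5.62. Hoxb6 was at 2.68, 2.38 and 2.64 against -3.49, -2.30 and -0.07, a difference of 4.48. Hoxd4 was at -0.22, 0.72 and 0.95 against -4.38, -3.58 and -2.45, a difference of 4.03. The Hoxb cluster held genes with contrasts of both signs on the same arrays, and Hoxb13, measured above background on only 1 of the 3, differed by -10.99, or by -8.95 with normexp. The differences of the other higher genes were 4.30 for Hoxb7, 2.98 for Hoxb4, 2.79 for Hoxb5 and 1.42 for Hoxb9.

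The Hoxa cluster showed little below its last gene, with differences from -1.36 at Hoxa9 to 0.08 at Hoxa4 and overlapping ranges. Hoxa6 and Hoxa9 split the 3 arrays: Hoxa9 was at -0.69 on 14-day female 1 but at -3.35 and -3.33 on the other two, below the lowest of the 28 at -2.13. Along the Hoxd cluster the differences ran from 2.54 at Hoxd8 and 1.88 at Hoxd9 through -0.30 at Hoxd10 and -0.99 at Hoxd11 to the bounded Hoxd12 and to Hoxd13, at -8.81 with 1 of the 3 arrays above background. The 6 measured Hoxc genes had differences of 1.35 to 3.71, but their ranges overlapped because levels on CRC 7 days male 1 were as high or higher, for instance Hoxc9 at -0.32 there against -2.60, -4.11 and -4.20. No Hox difference changed sign under the scalings tried, but Hoxc9, Hoxc10 and Hoxc11 had no difference in the deposited normalized values. With normexp the Hoxc differences were smaller, for instance 1.82 for Hoxc9 against 3.71.

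**Figure D2:**
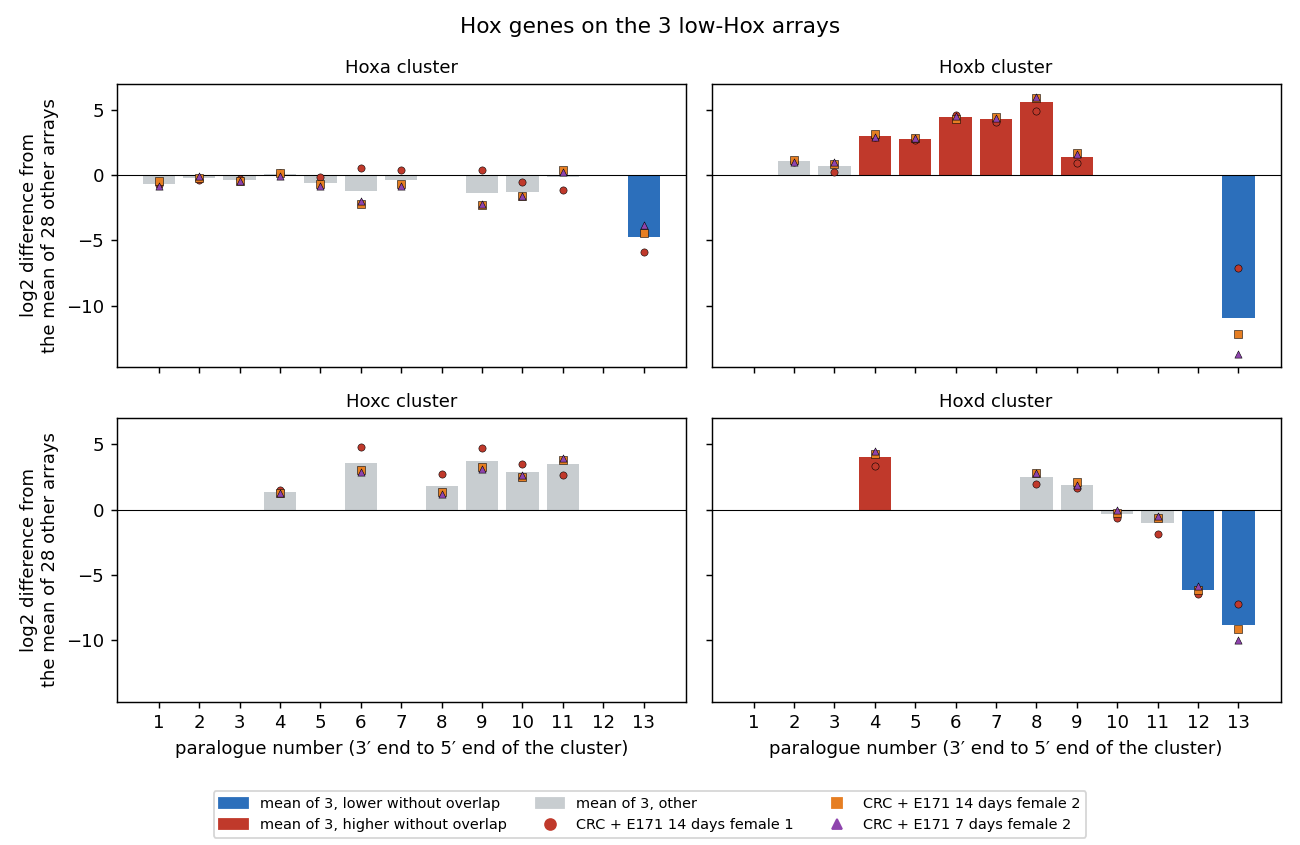
Difference of each measured Hox gene on the low-Hox arrays from the mean of the 28 other arrays (log2), by cluster and paralogue number; bars are means of the 3 arrays and symbols the single arrays. Blue bars (lower without overlap) stand at the 5′ end of the Hoxa, Hoxb and Hoxd clusters, and red bars (higher without overlap) at Hoxb4 to Hoxb9 and Hoxd4.

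Genes next to the clusters went with them in part. Evx1, a homeobox gene beside Hoxa13, was at -8.23, -8.54 and -8.24 against -4.90 to -0.18, at least 25.3-fold lower, a gap that was not kept in the deposited normalized values. Hoxa11os, the antisense transcript at Hoxa11, was at -0.12, 0.85 and 1.09 against 1.57 to 5.18. Hottip, a long noncoding RNA at the 5′ end of the Hoxa cluster, was at -4.18, -2.99 and -4.55 and overlapped the others at -4.66 to -0.83. The cofactors of the Pbx, Meis and Pknox families differed by -0.19 to 0.60 with overlap. Cdx2, a homeodomain factor of intestinal identity, was higher at 3.54, 2.84 and 2.88 against a highest other level of 2.73, whereas Cdx1 differed by 0.44 with overlap.

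Of 35 measured gut patterning factors 1 was lower and 0 were higher, beside 0.837% and 1.57% of all genes. The lower one was Isl1, a LIM homeodomain factor, at -6.34, -5.96 and -6.29 against -4.04 to -0.51. Osr2, a zinc finger factor, was at 0.15, 2.15 and 2.27 and had a median of -4.94 on the others, but CRC 7 days male 1 reached 1.28 and overlapped. Gata4, used in the small intestine ahead of the ileum, was at -7.10, -5.80 and -7.20 and overlapped the others at -6.94 to -3.76.

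Markers of the distal colon did not all follow the Hox genes. Insl5 was at -3.99, -1.62 and -1.45 against a lowest level of -2.67, a median of 3.81 and a highest of 5.28, a mean difference of -5.77. It overlapped through CRC + E171 14 days male 2 alone, and the next array, CRC 7 days male 1, was at -0.92. Pyy, a hormone of the same endocrine cells, was at 1.43, 1.36 and 1.87 against a median of 4.23 and overlapped too. Cldn8, a tight junction protein, was at -2.70 on 14-day female 1 but at 0.81 and 0.91 on the other two, against a median of 2.11, so its mean difference of -2.02 rested mostly on 1 array. Scnn1g, a subunit of the epithelial sodium channel, differed by -3.26. The channel subunit Scnn1b and the glucagon gene Gcg differed by 0.22 and 0.14, so 0 of the 6 measured distal genes were lower without overlap and their median difference was -2.25.

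Genes of the proximal colon stood higher for 5 of 9 measured, with a median difference of 2.77. Slc51a was at 4.18, 4.39 and 4.24 on the low-Hox arrays and at -8.12, -5.92 and -3.46 on the others. That put the 3 arrays more than 7 log2 units above the highest other array, CRC 14 days female 2. Slc51b, the partner subunit of the same carrier, was at 2.77, 2.18 and 2.14 against -4.45 to 1.14. Nr1h4, the bile acid receptor FXR, was at 2.51, 2.31 and 2.38 against -1.64 to 1.19. Cyp2c55 was at 6.56, 5.71 and 5.93 against -5.73 to 3.60, and Ugt2b34, a glucuronosyltransferase, differed by 1.39. Ang4, Slc20a1 and Osr2 were among those that overlapped, and Slc20a1, a phosphate carrier, was at 1.01 on 14-day female 1 but at -1.30 and -1.54 on the other two against a median of -0.24. A label of proximal against distal colon thus has 5 of 9 proximal and 0 of 6 distal genes without overlap, so the arrays are called by their low Hox genes here. All samples are labelled colon, and where along the colon these 3 samples were cut was not tested.

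Reg3b, a secreted antimicrobial lectin, had a higher mean by 10.80, but it was well above background on only 16 of the 28 others, as Slc51a was on 22, Nts on 21 and Apol10a on 19, so the order among these genes is not known. It was at 6.71, 6.04 and 6.40 and spread widely elsewhere, from -8.87 through -5.16 to 5.81, so the nearest array, CRC 7 days male 2, lay just below them. The gap closed with quantile normalization. Apol10a, of the apolipoprotein L family, was at 2.65, 4.00 and 4.08 against -8.48 to -1.80. Nts, the hormone neurotensin of the ileum and colon, was at 2.52, 2.67 and 2.77 against -8.42 to -3.25, and its gap to the highest other array was over 5 log2 units. Tmigd1, a brush border adhesion protein, and Prap1, a secreted epithelial protein, differed by 5.98 and 6.23. The remaining 4 of the 10 were enzymes that process foreign compounds: Ugt2b38 at 7.43, Cyp2c65 at 6.92, Ces1g at 6.62 and Cyp2c66 at 6.42. Such enzymes belong to families of near-identical genes, and cross-hybridisation among them was not tested.

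Among genes lower on the low-Hox arrays, Tmprss13, a membrane serine protease, was at -7.71, -8.54 and -8.19 and not well above background on any of them. The others ranged from -4.83 to 2.38, so it was at least 68.6-fold lower, a gap lost with normexp and the deposited values. Anxa8, an annexin, was measurable on all arrays, at -2.55, -0.56 and -0.26 against 3.51, 5.07 and 6.57. Thbs4, an extracellular matrix thrombospondin, was at -2.60, -1.30 and -1.40 against 0.92, 4.16 and 4.60. Ly6g, a surface protein best known from neutrophils, was at -2.42, -3.87 and -3.91 against 0.46, 2.77 and 4.05. All 3 of these last genes left a gap of at least 2 log2 units. Cstdc5, of the cystatin family, and Krt36 and Krt13, keratins, were lower too, Cstdc5 by 5.66 and Krt36 by 5.01 on the log2 scale and Krt13 at least 8.32-fold, the last with a gap lost under normexp. Sval3 was at -8.98, -8.56 and -8.30, not well above background on any low-Hox array, and at least 5.55-fold lower, a gap lost with quantile normalization and normexp. Hoxd12 and Evx1, given above, were the other 2 of the 10.

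**Figure D3:**
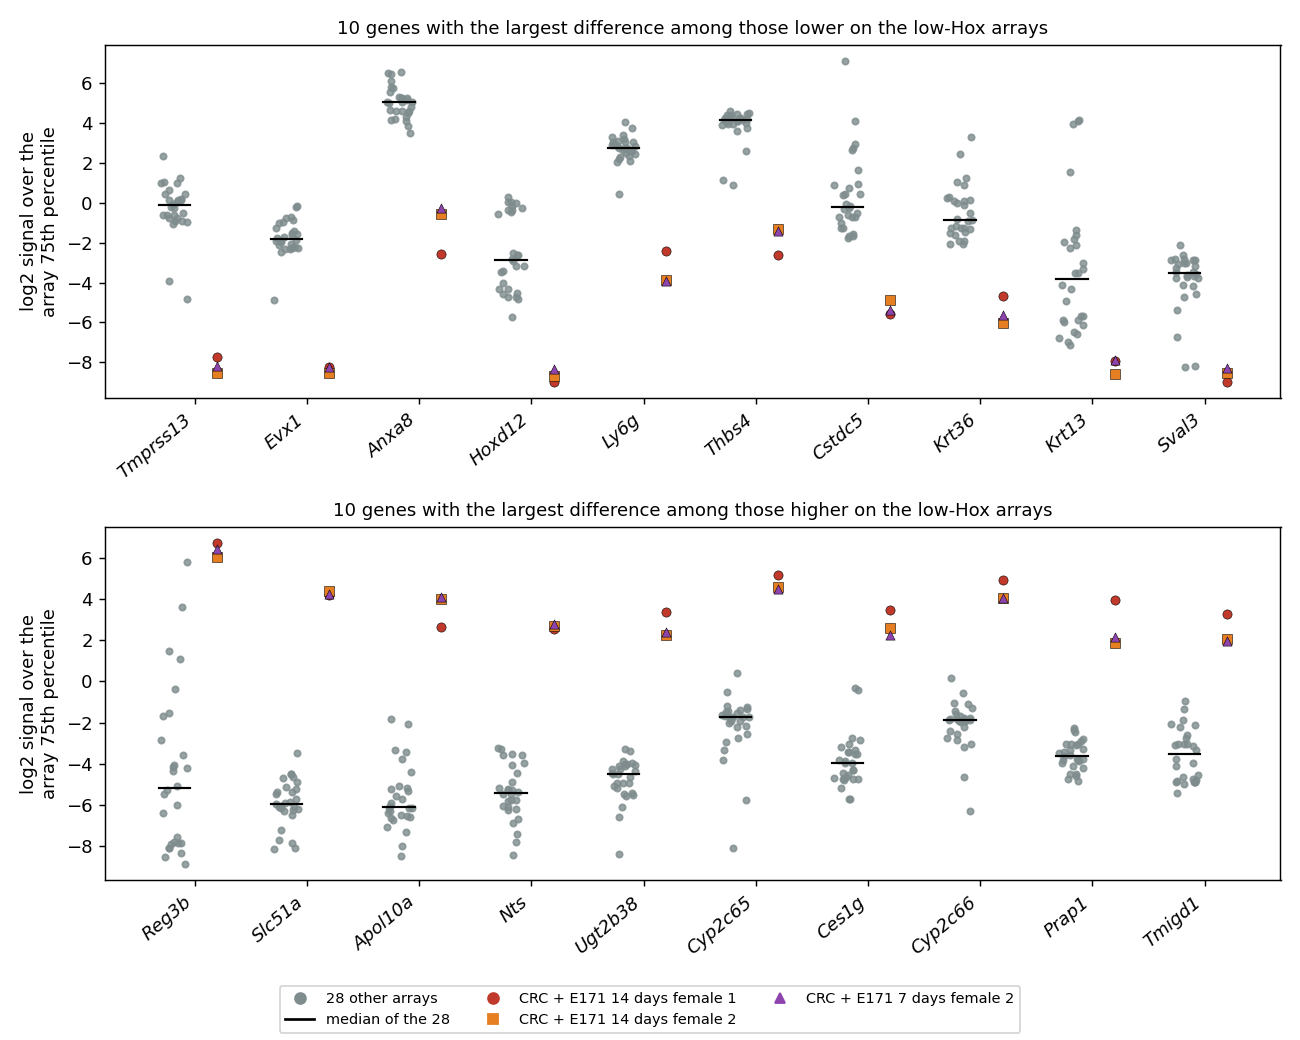
Level of the 10 genes with the largest lower (the rule's 3 left out) and the 10 with the largest higher difference, as log2 signal over the array's 75th percentile; grey points are the 28 other arrays, black lines their medians and coloured symbols the 3 low-Hox arrays. Slc51a and Nts on the low-Hox arrays lie far above all grey points, whereas the low-Hox arrays exceed the highest grey point of Reg3b only narrowly.

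Enzymes of drug metabolism were among the higher genes. Of 29 measured drug metabolism enzymes 16 were higher and 0 lower, with a median difference of 1.85 against 0.02 over all genes. Cyp4b1 was at 2.42, 2.50 and 2.54 against -4.74 to -0.26, and Ces1f, a carboxylesterase, at 4.01, 3.44 and 3.37 against -3.65 to -0.16. Not all enzymes followed. Adh1, an alcohol dehydrogenase, was at 3.30, 2.93 and 2.98 against a median of 5.42, and Cyp2c29 and Cyp2c68 differed by -0.34 and -0.54, all with overlap.

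Of 15 genes for bile acid handling and its receptors, 7 were higher and 1 was lower. Besides Slc51a, Slc51b and Nr1h4, the higher genes were Slc10a2, the apical bile acid importer of the ileum, at 3.64, 3.13 and 3.14 against a highest other level of 1.72, the exporters Abcc3 and Abcb1a, and Rxra, the partner of FXR. Gpbar1, a membrane bile acid receptor, was lower by 1.04 on the log2 scale, with levels of -3.13 to -2.80 against -2.70 to -0.91. Fgf15, a hormone induced by FXR, was at -4.49, -4.91 and -5.63 and overlapped the others at -8.44 to -3.93.

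Among small intestine genes 5 of 20 were higher. Alpi, intestinal alkaline phosphatase, was at 0.76, 0.54 and 0.57 against -7.58 to -2.76, and Fabp2, a fatty acid binding protein, at 7.13, 6.43 and 6.70 against -3.23 to 3.66. Sis, the sucrase-isomaltase of the brush border, was at 1.45, -2.31 and -2.63 against -8.78 to -5.09. The 3 arrays agreed on Alpi and Fabp2 but spread by 4 log2 units on Sis. Slc10a2 and Mgam, a maltase, were the other 2, with differences of 3.42 and 1.06, and the gap of Mgam was lost with normexp or the deposited values. On 14-day female 2 and 7-day female 2, Apoa1, an apolipoprotein, was at -7.24 and -8.15 and Lct, lactase, at -5.98 and -6.59, within the ranges of the others.

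**Figure D4:**
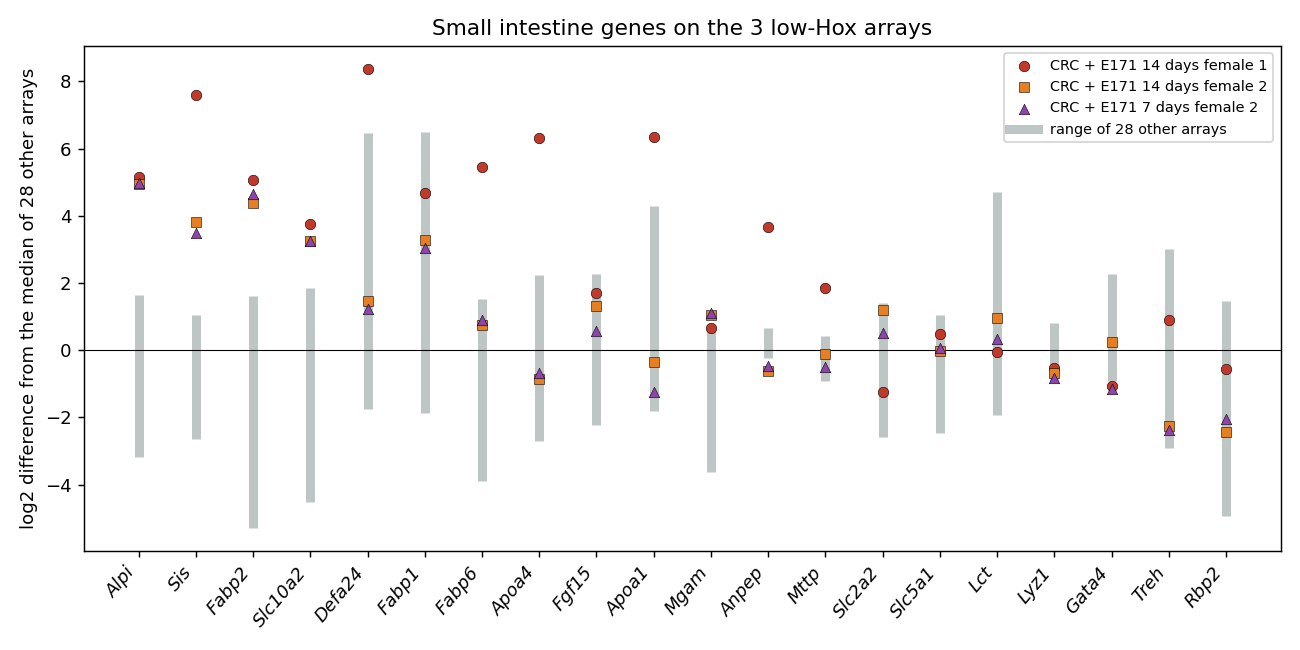
Level of 20 small intestine genes on the low-Hox arrays as the log2 difference from the median of the 28 other arrays; grey bars span the range of those 28. All 3 symbols lie above the bar for Alpi, Sis, Fabp2, Slc10a2 and Mgam, and 14-day female 1 alone lies above it for Defa24, Fabp6, Apoa4, Apoa1, Anpep and Mttp.

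Surface colonocyte genes were higher for 6 of 16, beside 1.57% of all genes. Among them were Car1, a carbonic anhydrase of the large intestine, Guca2b, a guanylate cyclase activator, Ceacam1, Cdhr5 and Tmigd1. Car1 was at 7.03, 6.62 and 6.97 against -3.78, 4.11 and 5.72. Aqp8, a water channel, differed by -0.60 with overlap. Of 21 genes for sodium and water uptake only Slc9a3, the apical sodium and proton exchanger, was higher, by 2.56, a gap lost under all 3 other scalings. Atp12a, the colonic proton pump, was at -4.42, -4.46 and -4.25 against a median of 2.40 and overlapped a lowest level of -4.76. Among 17 retinoid genes Aldh1a1, a retinal dehydrogenase, was the 1 higher gene at 5.80, 5.46 and 5.67 against 1.45 to 2.79.

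Of 15 enteroendocrine genes 3 were higher: Nts, Sct, the hormone secretin, and Pcsk1, a hormone convertase. Sct was at 5.76, 4.69 and 4.75 against -0.16 to 3.31. Insl5 and Pyy were low on the same arrays, whereas Chga, a granule protein of endocrine cells in general, was at 2.68, 4.36 and 4.35 against -0.80, 2.99 and 4.15. In such tissue RNA, fewer cells of a type and less RNA per cell cannot be told apart. Beside 1.57% of all genes, 1 of 12 goblet cell genes was higher, Galnt12, a mucin glycosyltransferase, by 1.05. Of crypt stem and proliferation genes 1 of 15 was higher, Lgr5, a stem cell receptor, by 1.52. The gap of either gene was lost in the deposited values, that of Galnt12 also with normexp and that of Lgr5 also with quantile normalization.

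Markers of other cell types were summed up as the median centred level of each list on each array. For epithelium, 0 of 12 genes were lower or higher, and the medians of 0.33, 0.02 and 0.05 lay within the range of the others, -3.30 to 0.52. None of the 13 smooth muscle, 15 neuron and glia, 12 fibroblast, 10 endothelial, 12 B cell and 12 T cell genes was lower or higher without overlap. Over all genes only 0.837% were lower and 1.57% higher, so 0 in such short lists is near that share. Adipocyte medians were 0.48 on 14-day female 1 but 2.24 and 2.18 on 14-day female 2 and 7-day female 2, above the highest of the others at 1.98, although 0 of 10 genes was apart on all 3. The pancreatic acinar median of 14-day female 1, -2.87, lay below the lowest of the others at -2.05, and those of the other two, -1.57 and -1.82, lay within their range, whose median was -1.40. Of 15 squamous keratinocyte genes 3 were lower, Krt13, Krt14 and Krt15, of 12 neutrophil genes 1, Ly6g, and of 12 macrophage genes 2, Cd68 and Cd14. With normexp the gaps of Krt13, Krt15 and Cd68 were lost. The macrophage median of 14-day female 1, -0.67, lay below the lowest of the others at -0.56. Those of 14-day female 2 and 7-day female 2, -0.52 and -0.41, lay within their range. The defining neutrophil genes S100a8 and S100a9 were at -5.06 to -4.47 and -2.62 to -2.27 on the low-Hox arrays and overlapped the others. The part of these cell types in the results was not tested.

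Sex was a shared feature of the 3 arrays. Xist, the RNA of the inactive X chromosome, was at -0.88, -0.70 and -0.74, just above the highest other array at -1.15 in a gap lost with normexp, while the Y-linked Kdm5d and Uty were in the low range of the others. With the 28 others limited to the 13 females, 435 genes were lower and 477 higher. Having no overlap is easier against fewer arrays, so these counts cannot be compared with those against all 28.

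The 3 arrays were not equal. The 14-day female 2 and 7-day female 2 arrays differed with an SD of 0.315 over 16211 genes, the second smallest of 465 pairs, whose median was 0.723. Only 284 genes (1.75%) differed by more than 2-fold between them, although they came from different groups and slides. Pairs of the same group had SDs of 0.281 to 1.53, with a median of 0.671. They were counted as 2 samples because the labels place them in different groups, and averaging them as 1 gave 189 lower and 354 higher genes. The 14-day female 1 array stood off from both, with SDs of 0.693 and 0.673 and 11.5% and 10.5% of genes differing by more than 2-fold.

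How each array stood apart differed as well. Against the others, 14-day female 1 had 1046 genes below and 775 above the range of the 28 by 2-fold, 14-day female 2 had 357 and 869, and 7-day female 2 had 411 and 686. When each of the 28 was set against the 27 remaining, the median was 209 below and 116.5 above, and the highest counts, 1847 below and 2002 above, belonged to CRC 7 days male 1. Standing outside the range was therefore not limited to the low-Hox arrays. Genes above the range on both 14-day female 2 and 7-day female 2 numbered 516, or 59.4% and 75.2% of their lists. Those above on both 14-day females numbered 299, or 38.6% and 34.4%.

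A further set of genes was high on 14-day female 1 alone, and these were picked after their values were seen. It exceeded all 30 other arrays by 2-fold for 99 genes and fell below them for 80. Lgals2, a galectin of enterocytes, was at 3.40 there and at -3.10 and -2.98 on the other low-Hox arrays, and Fabp6, the ileal bile acid binding protein, at 6.01 against 1.29 and 1.43. Apoa4, an apolipoprotein of fat absorption, was at 0.74 against -6.41 and -6.24. Anpep, a brush border peptidase, was at 5.67 against 1.36 and 1.54, and Defa24, a Paneth cell defensin, at 3.19 against -3.73 and -3.95. Slc2a2, a glucose carrier, was lower there, at -6.79 against -4.36 and -5.06, and Lct was also lowest there.

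The other two arrays shared 36 genes above and 21 below all 29 remaining arrays, by 2-fold. Cyp3a11, a cytochrome P450 of liver and gut, was at -0.05 and 0.04 there against -3.07 on 14-day female 1. Slc37a2, a sugar phosphate carrier, was at -4.53 and -4.46 against 3.78. Reg4, a secreted lectin of endocrine and goblet cells, was at -0.15 and -0.19 against 5.82. The colonocyte genes Slc26a3 and Aqp8 likewise were at -0.29 and -0.39, and at 3.13 and 3.29, against 2.89 and 6.95.

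Whether genes followed the posterior Hox level outside the chosen arrays was tested among the 28 others, with limma, as a slope on the posterior Hox median beside a term for the 8 groups, with Benjamini-Hochberg adjustment over all genes. Of 19842 genes, 1509 (7.61%) had a positive and 723 (3.64%) a negative slope at an adjusted p under 0.05. Of the 312 genes higher on the low-Hox arrays, whose slope would be negative if they followed it the same way, 6 were negative and 62 positive. Of 163 lower genes, 11 were positive and 14 negative, the direction of the low-Hox arrays being positive. Without CRC 7 days male 1 alone, 829 of all genes (4.18%) were positive and 450 (2.27%) negative. The lower genes then turned to 18 positive and 9 negative, so their split leaned on that array. The higher genes had 28 positive and 6 negative, still mostly positive.

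The slope depended on the CRC arrays at 7 days. Left out singly, their 2 females gave 1393 and 537 genes and their 2 males 1279 and 1939, from 2232. Without CRC 7 days male 1 and male 2, whose scores were -2.15 and -1.16, 16 genes were positive and 6 negative, and over the higher genes 0 were positive and 2 negative, and over the lower genes 1 was positive and 0 negative. These males also had the lowest epithelial medians of all 31 arrays, -3.30 and -1.48, and among the 28 arrays 11 of 12 epithelial genes had a positive slope and 9 of 12 neutrophil genes a negative one. The part of epithelial content in the slope was not tested. Ctse, the protease cathepsin E, which was also lower on the low-Hox arrays except in the deposited values, had the smallest p, with a slope of 1.10 ± 0.13 (SE, n = 28 arrays, limma adjusted p = 0.000492), and 1.10 ± 0.20 (adjusted p = 0.0297) without the pair. Abcg5, a sterol exporter, had 1.39 ± 0.18 (limma adjusted p = 0.000492) and 1.59 ± 0.28 without them (adjusted p = 0.0297).

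The other genes with the smallest p were past the threshold only with the pair, though several slopes changed little. Nags, the N-acetylglutamate synthase of the urea cycle, went from 1.89 ± 0.23 (limma adjusted p = 0.000492) to 1.23 ± 0.31 (adjusted p = 0.191), and Hnf4g, an enterocyte nuclear receptor, from 0.82 ± 0.11 (adjusted p = 0.000492) to 0.41 ± 0.12 (adjusted p = 0.319). Agr3, a secretory cell protein, went from 1.40 (adjusted p = 0.000492) to 1.19 (adjusted p = 0.125). On the negative side Car12, a carbonic anhydrase, went from -1.20 to -1.36 (adjusted p = 0.00121 and 0.0980), and Dusp4, a MAP kinase phosphatase, Vav3, an exchange factor, Hilpda, of lipid droplets, and Slc35d2, a sugar nucleotide carrier, had slopes of -0.68, -0.54, -0.71 and -0.47 in the 28 arrays and of -0.59, -0.46, -0.25 and -0.47 without the pair. Hoxd12, lower on the low-Hox arrays, had a slope of 1.37 ± 0.45 (limma adjusted p = 0.0511) and 2.89 ± 0.57 (adjusted p = 0.0518) without the pair, neither past the threshold. Insl5 had a slope of 0.79 ± 0.43 (limma adjusted p = 0.246) and -0.06 ± 0.63 (adjusted p = 0.984) without the pair. Slc51a had one of 0.39 ± 0.30 (limma adjusted p = 0.431) and -0.43 ± 0.41 (adjusted p = 0.739) without the pair.

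The low-Hox arrays entered the comparison of CRC + E171 with CRC at 7 and 14 days. It was fitted in limma over all groups. A gene was counted as differentially expressed (DEG) at a fold of 1.5 or more and an unadjusted p under 0.05. At 14 days there were 643 DEG up (3.24%) and 618 down (3.11%), and without the 2 low-Hox arrays of that group 280 up (1.41%) and 332 down (1.67%), with 2 CRC + E171 males left against 4 CRC arrays. Without 14-day female 1 alone there were 582 up and 303 down, and without 14-day female 2 alone 323 up and 679 down, so the split turned with 1 array. With all arrays or without the low-Hox ones, 0 genes passed at an adjusted p under 0.05 at either time, and the smallest adjusted p at 14 days was 0.438 with all arrays. At an unadjusted p under 0.05 alone, 1584 genes passed at 14 days with all arrays and 743 without.

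The genes that set the low-Hox arrays apart also entered this list; since 2 of the 4 CRC + E171 arrays chose them, nothing is read from their count with all arrays. Of the 312 higher genes 113 were DEG up at 14 days with all arrays, and 1 up and 3 down without the low-Hox arrays. Of the 166 lower genes 73 were DEG down with all arrays, and 3 down and 2 up without. The median log2 fold at 14 days of the higher genes went from 0.83 to -0.13, and of the lower genes from -0.99 to -0.05. Both medians lay near 0 once the low-Hox arrays were left out.

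**Figure D5:**
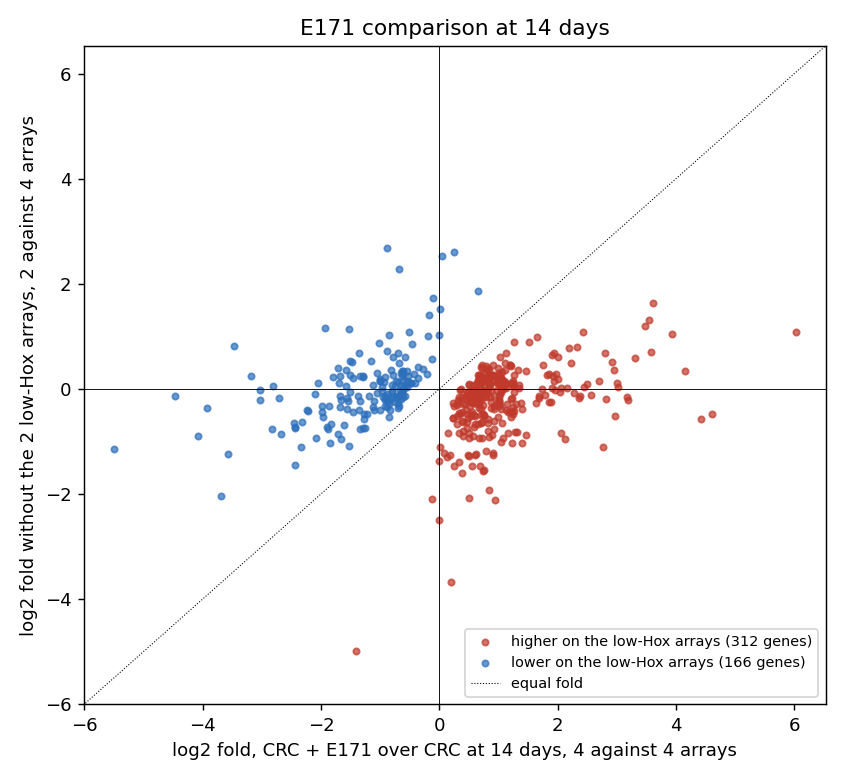
Log2 fold of CRC + E171 over CRC at 14 days for the 312 genes higher (red) and 166 lower (blue) on the low-Hox arrays, with all 4 against 4 arrays on the x axis and without the 2 low-Hox arrays on the y axis. Red points lie mostly right of 0 and blue points mostly left of it, while both gather around 0 on the y axis.

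Single genes are given with all arrays and then without. Slc51a had a log2 fold at 14 days of 4.42 ± 2.00 (SE) with all arrays and of -0.57 ± 0.92 without the low-Hox ones. Hoxb13 had -5.50 ± 2.21 and then -1.14 ± 0.67. No p is given for these genes, since their values on the low-Hox arrays chose them or the arrays. Sis had 3.57 ± 1.11 and then 0.71 ± 0.68, and Anxa8 -3.19 ± 1.26 and then 0.25 ± 0.69. Insl5 kept more of its fold, -4.48 ± 1.42 and then -2.42 ± 1.38, as it was also at -2.67 on CRC + E171 14 days male 2. By list, DEG up at 14 days are given beside 3.24% and 1.41% of all genes. They went from 7 to 0 of 29 drug metabolism enzymes and from 6 to 0 of 15 bile acid genes. Small intestine genes went from 4 to 0 of 20 and proximal colon genes from 3 to 0 of 9. In lists of this size 0 lies near 1.41%. Some lists share members, such as Slc51a, so the drops are not separate results.

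At 7 days, where 1 of 4 arrays was low-Hox, 1376 genes were DEG up (6.93%) and 1087 down (5.48%). Without that array 1244 (6.27%) were up and 943 (4.75%) down. Other single arrays moved the counts more, to 532 up and 391 down without CRC 7 days male 1. Without CRC 7 days female 1 they were 2010 up and 1973 down. The 312 higher and 166 lower genes were chosen in part by 7-day female 2, so nothing is read from their counts with all arrays. Of the 312 higher genes 115 were up with all arrays, and 70 up and 9 down without 7-day female 2. Of the 166 lower genes 38 were down with all arrays, and 17 down and 5 up without. Drug metabolism enzymes were DEG up for 15 of 29 with all arrays and for 14 without it. The CRC arrays at 7 days include the 2 males with the lowest epithelial medians, and epithelial genes were DEG up for 11 of 12 with all arrays and 10 without. The part of epithelial content in the 7-day comparison was not tested.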

How the data were processed

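Colon RNA of 31 mice was hybridised to Agilent arrays with a single dye. The authors scanned them with Feature Extraction 10.7.3.1, and the deposited scanner files hold signal intensity per spot, both processed and raw with background, beside flags that mark spots well above background or outliers (a score of 0 or 1). The deposited series table holds the authors' log2 values after their own background correction and normalization; its exact scaling was not given in the sources used here and it served as an alternative. Levels were computed from the processed intensity as log2 minus each array's 75th percentile. Control spots and outlier flags were left out, spots of a probe were averaged, and probes were kept where, in at least 1 group, 60% of the arrays had a signal flagged as clearly over background and the log2 mean reached 4, leaving 42787 of 56605 probes. The mean over a gene's probes was taken, giving 19845 genes. The count of genes without overlap was made over the 19842 with a value on all 3 low-Hox arrays and nearly all others, and the slope was fitted for 19842, without the 3 genes of the rule. Probes were named through accession (33903), symbol (9458) or synonym (488) in RefSeq tables, and 12756 had no match.

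The members and gene lists were chosen with earlier results of these data known. Named genes were Hoxa13, Hoxb13, Hoxd13, Insl5, members of the Hox, distal colon, proximal colon and small intestine lists, the 10 others with the largest difference in each direction, the 5 with the smallest slope p in each direction, and up to 4 members of each other list; others are members of those lists shown for their role or were chosen after their values were seen. R 4.3.3 and limma 3.58.1 were used, and the code was tested on simulated data. The thresholds for a DEG were taken from the published methods, with the fold read as linear; their wording also allows a log2 reading. The low-Hox arrays were set against the others with no test, the slope among the others was tested in limma with the 8 groups as covariate, and E171 contrasts were taken from 1 fit of the 8 groups. The processed signal carries a substitute value where a spot was not above background. Where "at least N-fold" is given, the dim group's level was set at the higher of its own signal and the lowest signal well above background. Alternatives were quantile normalization, normexp (offset 50), the deposited values, other filters, folds and thresholds, left-out arrays, and the replicate number as a block. By the methods each array is 1 mouse, and arrays carry no count depth, so their number limits the precision. A few list members that count in the totals are not reported here by name.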

Additional observations from a re-analysis of the deposited data

Results flagged for a closer look

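In the groups of 4 arrays, the posterior Hox median and 10 genes were searched for an array far from the rest of its group by Dixon's 95% value, which chance passes in about 1 of 20 groups. Of 77 such searches, 11 measures by 7 groups, 11 passed. For CRC + E171 7 days female 2 these were the posterior Hox median at -9.14 (nearest array of its group 0.88), Hoxa13 at -3.57 (0.43), Hoxb13 at -8.41 (5.14), Insl5 at -1.45 (4.07), Slc51a at 4.24 (-5.10) and Apol10a at 4.08 (-5.20). That array was chosen for its low Hox values, and Slc51a and Apol10a were picked for their differences on arrays that include it, so these values restate the choice and carry no test; Insl5 was named with the choice as well. The 2 low-Hox arrays at 14 days could not stand out in this way, since each had the other near it.

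The other 5 values were on arrays outside the low-Hox set. The posterior Hox median of CRC + E171 21 days male 1 was 0.416 (nearest 1.54). Hoxa13 was at 0.160 on CRC + E171 2 days female 2 (nearest 0.722) and at 1.16 on CRC 2 days male 1 (0.417). Apol10a was at -3.78 on CRC 7 days female 1 (-6.14), and Anxa8 was at 5.59 on CRC 2 days male 1 (4.32).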

How the results depend on the processing

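The same 3 arrays were chosen under all alternatives apart from a threshold of -2, which added CRC 7 days male 1. The 166 lower genes became 102 with normexp, 82 at 4-fold, 435 against only the other females, 433 against only the other CRC + E171 arrays at 7 and 14 days and 262 without CRC 7 days male 1 and male 2 (added after seeing the data), and 205 to 256 with 1 low-Hox array left out. The 312 higher genes became 502 with no fold threshold, 142 at 4-fold, 477 and 606 against those females and CRC + E171 arrays, and 355 to 554 with 1 low-Hox array left out, the highest of either range without 14-day female 1. Having no overlap is easier with fewer arrays on either side, so counts with arrays left out cannot be compared with the main ones. Of the lower genes 148 were also called with quantile normalization, 93 with normexp and 132 with the deposited values. For the higher genes these were 282, 278 and 270. The median of all genes was 0.02 (-0.02 quantile, 0.13 normexp, -0.005 deposited); 5 of 185 named genes changed sign under a scaling (Abcg5, Gata4, Lct, Treh and Wt1), none of them called, and 14 of 57 called ones lost the call. The 2232 genes with a slope became 5381 with no group term and 22 without CRC 7 days male 1 and male 2, and ranged from 537 (without CRC 7 days female 2) to 3027 with 1 array left out, with 1279 without CRC 7 days male 1 and 1393 without CRC 7 days female 1. The 2463 DEG at 7 days became 0 at an adjusted p and ranged from 923 (without CRC 7 days male 1) to 3983 (without CRC 7 days female 1). The 1261 DEG at 14 days became 612 without the low-Hox arrays, 375 of them called in the same direction in both, 758 with a stricter filter and 0 at an adjusted p, and ranged from 885 (without CRC + E171 14 days female 1) to 2138 (without CRC + E171 14 days male 2). The split of DEG into up and down was 1024 and 216 with normexp and 753 and 993 with the deposited values at 14 days, and 1373 and 738 with normexp at 7 days. For each of these changes the cause was not tested. Same-numbered samples of the 2 arms correlated at -0.182 to 0.478, with 8 of 15 pairs over 0.1. Whether they share more than a number was not tested. With the replicate block the counts were 2364 for the slope, 2548 DEG at 7 days and 1526 at 14 days. Low genes near background limit the fold of Hoxd12, Evx1, Tmprss13, Krt13 and Sval3 to bounds, and Hoxb13 and Hoxd13 were above background on 1 of the 3 low-Hox arrays.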
